A study of Mus musculus with 6 samples.

Results

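Cell cycle and DNA replication genes were examined in the mouse carotid body and adrenal medulla. The set was 37 genes listed by symbol: 9 of the replication machinery, 8 cyclins and kinases of the G1 and S phases, 19 of mitosis, and the chromatin gene Hmga2. A gene was measured where the array had a probe set annotated to that symbol alone, and its brightest such probe set over the 6 arrays represented it. By that rule 36 of the 37 genes were measured, of 18193 genes in all. Ccnb1, which encodes cyclin B1, had no probe set annotated to it alone, and no value is given for it.

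The series holds 6 arrays of untreated adult C57/BL6 mice (Charles River, stock number 027), 3 of carotid body and 3 of adrenal medulla, with no mutant allele or agent named for either tissue. Each carotid body sample pooled 18 carotid bodies from 10 mice, and each adrenal medulla sample pooled 10 medullas from 10 mice. Samples that share a number, 1 to 3, came from one cohort of animals. The carotid body is the sensory organ beside the carotid bifurcation that monitors blood oxygen, and the adrenal medulla is the adrenaline-secreting core of the adrenal gland. Levels are log2 intensities, so a difference of 1 is 2-fold, and differences are carotid body minus adrenal medulla. A gene was called when limma's adjusted p was under 0.05 and the difference at least 2-fold.

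A dividing cell passes through G1, copies its DNA in S phase and separates the copies in mitosis. D cyclins with Cdk4, then E cyclins with Cdk2, inactivate retinoblastoma proteins and release E2F factors, which turn on the genes of replication. Mitosis genes come on later, through CCAAT boxes and the cell cycle genes homology region (CHR) in their promoters, and are held off in resting cells by the DREAM complex. Glomus cells and chromaffin cells of adult animals are largely out of the cycle, although the carotid body can produce new cells under low oxygen.

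The promoters of these genes are shown because letters known from cell cycle promoters sit near the start of transcription. RefSeq promoters of build GRCm38.p6, 250 bases before to 50 bases after the start, were found for 28 of the measured genes, with 30 promoters. E2F letters were TTTCCCGC, TTTCGCGC, TTTGCCGC or TTTGGCGC on either strand, which can overlap each other. They were present in 4 of 9 promoters of the replication genes and in 2.26% of all 32851 promoters. Stretches of Mcm5 (chr8:75109339-75109508, plus strand) and Mcm6 (chr1:128359706-128359825, minus strand), which encode helicase subunits, are given 5′ to 3′ with the E2F letters in capitals. Overlapping matches form 1 run of capitals.
Mcm5: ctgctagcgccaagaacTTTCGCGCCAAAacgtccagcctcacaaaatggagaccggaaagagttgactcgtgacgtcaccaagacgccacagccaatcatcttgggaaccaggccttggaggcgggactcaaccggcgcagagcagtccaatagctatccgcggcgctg
Mcm6: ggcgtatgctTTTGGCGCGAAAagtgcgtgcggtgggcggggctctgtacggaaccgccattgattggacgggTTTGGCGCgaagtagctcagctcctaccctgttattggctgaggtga

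The CHR letters TTTGAA, on either strand, were present in 11 of 15 promoters of mitosis genes and in 17.9% of all promoters. The letters CCAAT, on either strand, were present in 13 of those 15 and in 37.4% of all promoters. CCAAT was also in 9 of 9 promoters of the replication genes, so it did not set the mitosis genes apart. TTTGAA and CCAAT stood together in 11 of the 15 mitosis promoters, in 1 of the 9 replication promoters and in 6.95% of all. In the next 4 stretches, from genes described below, capitals mark TTTGAA with its complement TTCAAA, and the CCAAT box with its complement ATTGG; none overlap here. They lie at chr10:69352913-69353052 (Cdk1, minus strand), chr11:99024190-99024299 (Top2a, minus strand), chr4:118437344-118437403 (Cdc20, minus strand) and chr2:164769829-164769928 (Ube2c, plus strand). The Hmga2 promoter held none of the 3 motifs. A match of letters is a description of these windows and not a measured binding site.
Cdk1: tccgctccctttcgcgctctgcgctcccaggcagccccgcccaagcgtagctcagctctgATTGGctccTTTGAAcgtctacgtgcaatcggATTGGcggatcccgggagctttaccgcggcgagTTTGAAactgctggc
Top2a: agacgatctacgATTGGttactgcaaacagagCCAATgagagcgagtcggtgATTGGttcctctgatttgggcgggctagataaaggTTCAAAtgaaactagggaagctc
Cdc20: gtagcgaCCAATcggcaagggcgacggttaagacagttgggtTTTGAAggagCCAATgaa
Ube2c: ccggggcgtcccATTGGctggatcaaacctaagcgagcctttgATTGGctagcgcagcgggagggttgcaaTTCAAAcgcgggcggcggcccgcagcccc

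Array medians ranged over 5.25 to 5.32 in carotid body, against 5.16 to 5.18 in adrenal medulla. Olfr78, a receptor of glomus cells, was at 11.18, 11.90 and 11.80 in carotid body, against 4.96, 5.58 and 5.89 in adrenal medulla. The labelled tissues also differed in Pnmt, the adrenaline-forming enzyme of chromaffin cells, which was at 11.13, 7.65 and 8.08 in carotid body and at 13.17, 13.84 and 13.70 in adrenal medulla. Carotid body array 1 stood apart in adrenal cortex genes: 10 of 12 were at least 2-fold above both other carotid body arrays. Star, which brings cholesterol to the steroid-making enzymes, was at 12.06 there and at 3.85 and 3.81 in carotid body arrays 2 and 3, against 13.92, 13.95 and 13.52 in adrenal medulla. Xist, the RNA of the inactive X chromosome, was at 10.96, 8.84 and 9.82 in carotid body and at 4.45, 5.60 and 5.02 in adrenal medulla. It was called, at 4.85 (limma adjusted p = 0.000693), so the sex make-up of the pools may differ between the tissues, also within a cohort. The part of sex in the tissue differences was not tested. The 3′ minus 5′ difference of the Gapdh controls amounted to 1.45, 1.04 and 0.59 for carotid body, against 0.51, 0.13 and 0.61 for adrenal medulla. Carotid body array 3 stood apart in the cell cycle genes themselves, so results are given with and without it.

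None of the 36 genes was called between carotid body and adrenal medulla: 0 were higher and 0 were lower in carotid body by limma, against 5.91% and 6.08% of all genes, or 12.0% in either direction. At an unadjusted p under 0.05 there were 5, against 39.1% of all genes. With the adjusted p alone there were 2, Ccnd3 and Cdk4, both lower in carotid body, against 27.4% of all genes, or 16.5% in that direction. The median difference was 0.30 over the 36 genes and -0.04 over all genes, with 25 genes positive and 11 negative. In whole-tissue samples, fewer cells of a type and less RNA per cell cannot be told apart.

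The sign of that median turned when carotid body array 3 was left out. Within cohorts 1, 2 and 3 the median difference over the 36 genes was 0.01, 0.00 and 0.66. Without carotid body array 3 it was -0.15, with 12 genes positive and 24 negative. Without cohort 3 in both tissues it was 0.00, with 19 genes positive and 17 negative. Without carotid body array 1 it was 0.49, again with 0 genes called, against 12.3% of all genes. No detection calls came with the arrays, and 23 of the 36 genes, among them 17 of the 18 mitosis genes, were dimmer than the median gene. Low intensities can compress such differences, which was not tested here.

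**Figure D1:**
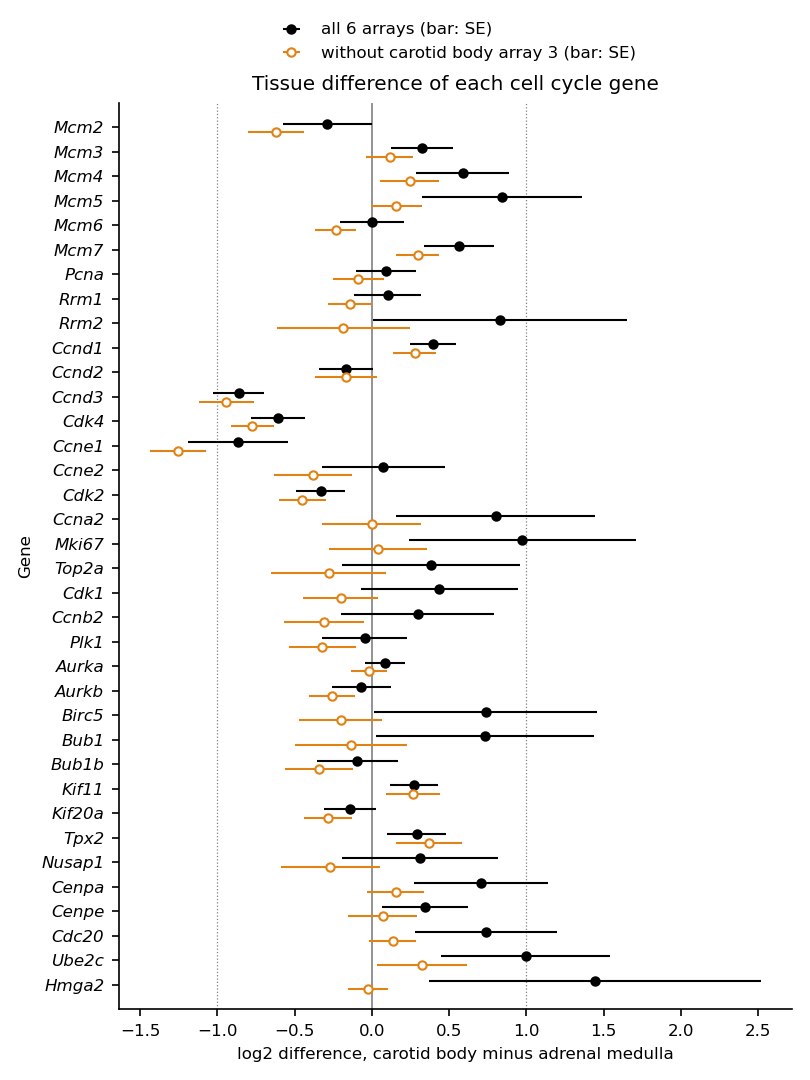
Log2 difference, carotid body minus adrenal medulla, of each of the 36 genes (rows), with bars of 1 SE from limma. Black points use all 6 arrays and open orange points leave out carotid body array 3, which moves most mitosis and replication genes towards or past 0; dotted lines mark 2-fold.

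No replication gene passed the test between tissues, and each was at its carotid body maximum in array 3. Mcm2 to Mcm7 encode the ring-shaped helicase that unwinds DNA at the fork. Mcm5 was at 7.31, 7.40 and 9.41 in carotid body, against 7.18, 6.97 and 7.45 in adrenal medulla (0.84 ± 0.52 (SE), limma adjusted p = 0.302). Carotid body array 3 was far above the other 5 arrays, which lay close together, and without it the difference was 0.16. The other 2 probe sets of Mcm5 were dimmer, and carotid body array 3 was above array 2 by less than 0.10 in each.
Mcm7 was the replication gene whose tissues did not overlap, with 9.33, 9.28 and 10.11 in carotid body, against 9.14, 8.84 and 9.06 in adrenal medulla (0.56 ± 0.23 (SE), limma adjusted p = 0.122). The background for such separation was 17.8% of all genes higher in carotid body. The dimmer Mcm7 probe sets differed by -0.27, 0.33 and 0.78, and the tissues overlapped in each. Mcm4 was at 8.92, 8.66 and 9.82 in carotid body and at 8.28, 8.50 and 8.85 in adrenal medulla, a difference of 0.59 ± 0.30 (SE). Mcm3 differed by 0.33 ± 0.20 (SE), and Mcm6 by -0.00 ± 0.21.

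Mcm2 gave unlike values with its 2 probe sets. Its brightest was at 7.80, 8.23 and 9.01 in carotid body and at 8.74, 8.75 and 8.41 in adrenal medulla, and the tissues overlapped (-0.29 ± 0.29 (SE), limma adjusted p = 0.543). The dimmer one was at 5.24, 5.42 and 6.08 in carotid body, against 7.56, 7.03 and 6.82 in adrenal medulla, with no overlap (-1.56 ± 0.27 (SE), limma adjusted p = 0.00527). Of all 89 probe sets of the 36 genes, 2 passed the call, both lower in carotid body, against 10.5% of all probe sets; the other belonged to Ccne1.

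Pcna, the sliding clamp that holds DNA polymerase on its template, was at 10.11, 10.49 and 10.84 in carotid body and at 10.42, 10.53 and 10.21 in adrenal medulla. The tissues overlapped throughout, with a difference of 0.09 ± 0.20 (SE). Rrm1 and Rrm2 encode the subunits of ribonucleotide reductase, which makes DNA building blocks, and Rrm2 is the subunit made in S phase. Rrm2 was at 6.01, 5.80 and 8.95 in carotid body, against 5.23, 6.14 and 6.90 in adrenal medulla (0.83 ± 0.82 (SE), limma adjusted p = 0.538). The third array was the highest in each tissue, and a second Rrm2 probe set had the same order, with 5.23, 4.67 and 7.47 in carotid body, against 5.21, 5.67 and 6.48 in adrenal medulla. The brightest Rrm1 probe set differed far less among arrays, at 8.07, 8.19 and 8.86 in carotid body and at 8.14, 8.20 and 8.46 in adrenal medulla. A dimmer one had 5.13, 6.03 and 6.38 in carotid body, against 6.73, 6.58 and 6.44 in adrenal medulla (-0.74 ± 0.29 (SE), limma adjusted p = 0.118).

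The 8 cyclins and kinases of G1 and S phase had a median difference of -0.25, with 3 positive and 5 negative, against 0.33 for the replication genes and 0.33 for the mitosis genes. Without carotid body array 3 alone the 3 medians were all negative, at -0.42, -0.09 and -0.17 in that order. Without cohort 3 in both tissues they were -0.40, 0.17 and 0.07, so the negative sign held for the G1 and S phase genes only. Ccnd3, a D cyclin, was at 8.81, 9.12 and 9.20 in carotid body, against 9.89, 10.14 and 9.68 in adrenal medulla. Each carotid body array was below each adrenal medulla array (-0.86 ± 0.16 (SE), limma adjusted p = 0.00814), and the difference was under 2-fold. The other 2 Ccnd3 probe sets, both dimmer, differed by 0.45 and -0.03, so the mean over its probe sets was -0.15 (limma adjusted p = 0.289).
Cdk4, the kinase partner of D cyclins, was at 8.83, 9.13 and 9.48 in carotid body and at 9.70, 9.83 and 9.73 in adrenal medulla, again with no overlap. Its difference was -0.61 ± 0.17 (SE; limma adjusted p = 0.0390), and the adjusted p was 0.0781 to 0.134 when any 1 array other than carotid body array 3 was left out. Its other 2 probe sets differed by -0.57 and -0.96. These were the 2 genes separated with carotid body below, against 26.1% of all genes.

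Ccne1, the E cyclin that works with Cdk2 at the entry to S phase, was at 5.80, 5.73 and 6.93 in carotid body, against 6.73, 7.02 and 7.32 in adrenal medulla. The tissues overlapped through carotid body array 3 (-0.87 ± 0.32 (SE), limma adjusted p = 0.0956). Without that array Ccne1 was called, at -1.26 (limma adjusted p = 0.00313), as 1 of the 36 genes against 12.8% of all genes. With the cohort as a block Ccne1 had a limma adjusted p of 0.0214, at a difference under 2-fold. Its dimmer probe set was at 5.21, 5.47 and 5.88 in carotid body and at 6.57, 6.70 and 6.79 in adrenal medulla, with no overlap (-1.16 ± 0.18 (SE), limma adjusted p = 0.00359). Without cohort 3 in both tissues, 2 genes were called, Ccnd3 at -1.05 and Ccne1 at -1.11, against 12.2% of all genes.

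Ccnd1, the D cyclin induced by growth factors, was at 10.31, 10.48 and 10.75 in carotid body and at 10.28, 10.08 and 10.00 in adrenal medulla. The tissues did not overlap, though their nearest arrays were at 10.31 and 10.28, and the difference did not pass (0.40 ± 0.15 (SE), limma adjusted p = 0.100). Ccnd2 was at 11.80, 12.28 and 12.04 in carotid body and at 12.40, 12.29 and 11.93 in adrenal medulla, and it was one of the genes for which carotid body array 3 was not the highest. Cdk2 differed by -0.33 ± 0.16 (SE) and Ccne2, the other E cyclin, by 0.07 ± 0.40.
Ccna2 encodes cyclin A2, which drives S phase and the approach to mitosis. It was at 5.64, 5.95 and 8.20 in carotid body, against 5.29, 5.66 and 6.44 in adrenal medulla (0.80 ± 0.65 (SE), limma adjusted p = 0.439). Without carotid body array 3 the difference was -0.00. A dimmer Ccna2 probe set had 5.92, 5.50 and 6.22 in carotid body, against 5.75, 5.43 and 5.55 in adrenal medulla.

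**Figure D2:**
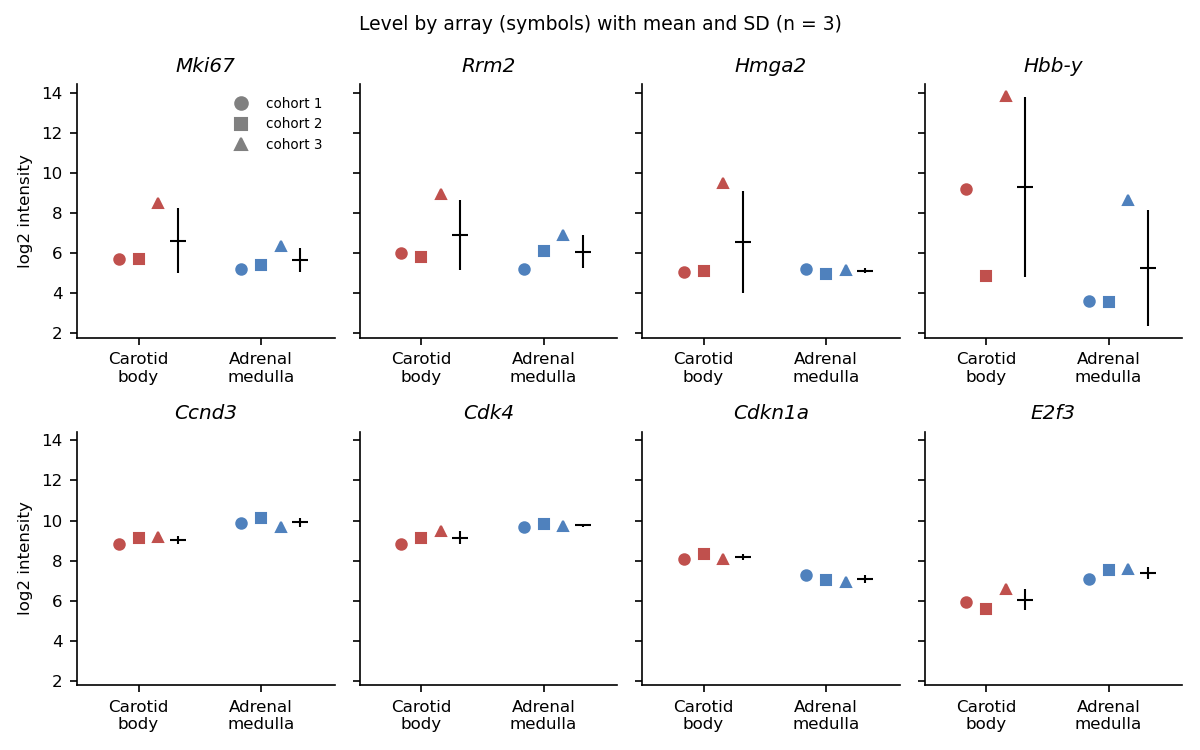
Log2 intensity (y axis) of 8 genes in carotid body (red) and adrenal medulla (blue), by array, with circles, squares and triangles for cohorts 1, 2 and 3 and bars for mean and SD of 3 arrays. Mki67, Rrm2, Hmga2 and Hbb-y are highest in carotid body of cohort 3, while Ccnd3 and Cdk4 are lower and Cdkn1a higher in each carotid body array; E2f3 is lower in each.

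No mitosis gene passed the test, and 10 of the 18 were at least 2-fold above both other carotid body arrays in array 3, against 0.682% of all genes. Mki67, the proliferation marker that coats mitotic chromosomes, was at 5.71, 5.70 and 8.51 in carotid body, against 5.22, 5.43 and 6.36 in adrenal medulla. Arrays 1 and 2 of carotid body lay within the adrenal medulla range, and array 3 was above all others (0.97 ± 0.73 (SE), limma adjusted p = 0.403). Without array 3 the difference was 0.04.
Top2a, the topoisomerase that untangles sister chromatids, was at 5.41, 5.68 and 7.53 in carotid body and at 5.37, 5.45 and 6.65 in adrenal medulla. The third array was the highest of each tissue, and the difference was 0.38 ± 0.58 (SE). A dimmer Top2a probe set had 4.63, 4.99 and 6.05 in carotid body, against 4.28, 4.43 and 4.48 in adrenal medulla, where array 3 did not stand out.

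Cdk1 is the kinase that starts mitosis with B cyclins. It was at 4.46, 5.27 and 6.79 in carotid body and at 4.91, 5.05 and 5.24 in adrenal medulla (0.44 ± 0.51 (SE)). Its partner Ccnb2, cyclin B2, was at 4.47, 4.47 and 6.29 in carotid body and at 4.24, 5.11 and 5.0 in adrenal medulla. In both genes carotid body array 3 was the highest of the 6, and carotid body array 1 was below the adrenal medulla mean. The further mitotic kinases had differences near 0: Plk1 differed by -0.05, Aurka by 0.08 and Aurkb by -0.07.
Birc5, survivin of the chromosomal passenger complex, was at 4.60, 4.21 and 7.23 in carotid body, against 4.11, 4.72 and 4.99 in adrenal medulla. Bub1, a kinase of the spindle checkpoint, was at 3.56, 3.81 and 6.29 in carotid body and at 3.27, 3.59 and 4.60 in adrenal medulla. Both had an SE nearly as large as the difference, 0.74 ± 0.72 for Birc5 and 0.73 ± 0.71 for Bub1. Bub1b, a relative of Bub1, differed by -0.09 ± 0.26 (SE). A dimmer Bub1b probe set had 4.71, 5.02 and 6.08 in carotid body, against 5.24, 5.14 and 4.88 in adrenal medulla. Another stayed between 3.91 and 4.17 in all arrays.

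Ube2c and Cdc20 act in the anaphase-promoting complex that ends mitosis, as the ubiquitin-conjugating enzyme and the activator. Ube2c was at 5.55, 5.55 and 7.55 in carotid body and at 4.63, 5.33 and 5.71 in adrenal medulla (0.99 ± 0.55 (SE), limma adjusted p = 0.248). Cdc20 was at 6.73, 6.70 and 8.52 in carotid body and at 6.45, 6.48 and 6.81 in adrenal medulla (0.74 ± 0.46 (SE), limma adjusted p = 0.307). Its dimmer probe sets had 5.80, 5.99 and 6.34, and 5.33, 5.69 and 5.76, in carotid body. Ube2c and Cdc20 are genes whose promoter stretches above hold TTTGAA and CCAAT. The centromere histone Cenpa was at 6.05, 5.76 and 7.56 in carotid body and at 5.50, 5.74 and 6.01 in adrenal medulla. Its dimmer probe sets were lowest in array 3 of carotid body, with 4.41, 4.31 and 4.23, and 3.28, 3.18 and 3.04. Nusap1, a spindle protein, was at 5.13, 5.73 and 7.18 in carotid body and at 5.22, 5.61 and 6.27 in adrenal medulla.
The spindle motors and their partners lay near the floor of the scale. Kif11, a motor that separates the spindle poles, ranged from 3.91 to 4.46 over the 6 arrays. Kif20a ranged from 3.33 to 3.96, and the kinetochore motor Cenpe from 3.92 to 5.08. Tpx2, an activator of Aurka, read 4.24 in 4 of the 6 arrays and was highest, at 4.98, in carotid body array 2. For Kif11 and Tpx2 a dimmer probe set did have carotid body array 3 highest, at 5.26 for Kif11 and 5.06 for Tpx2.

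Hmga2, a chromatin protein abundant in embryonic cells and scarce in adult tissues, was at 5.09, 5.13 and 9.52 in carotid body, against 5.23, 4.98 and 5.19 in adrenal medulla. A single array was high, and the other 5 lay between 4.98 and 5.23, so the difference of 1.44 carried an SE of 1.08 (limma adjusted p = 0.399). Without that array it was -0.03. A second Hmga2 probe set was at 4.49, 4.15 and 9.95 in carotid body and at 4.66, 4.58 and 4.68 in adrenal medulla, and another at 3.69, 3.87 and 8.09, against 3.99, 4.07 and 4.40. The last of the 4 stayed between 3.33 and 4.04 in all arrays.

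**Figure D3:**
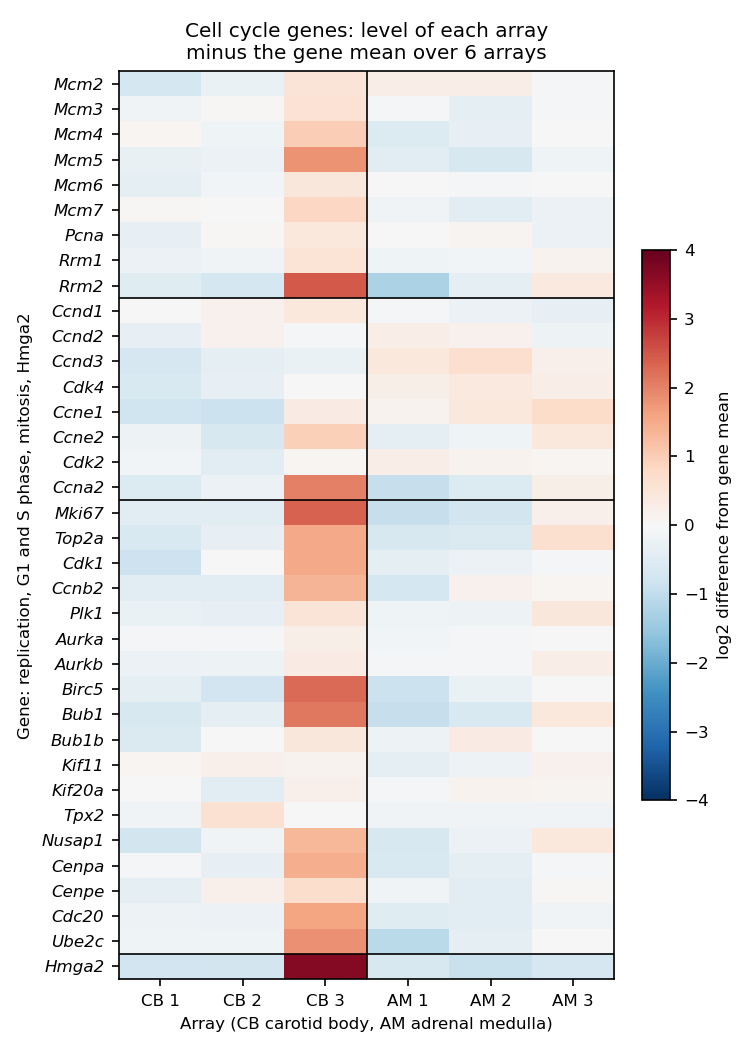
Log2 level of each gene (rows: replication, G1 and S phase, mitosis, Hmga2) in each array (columns: carotid body 1 to 3, adrenal medulla 1 to 3) minus the gene's mean over 6 arrays. The third carotid body column is red for nearly every replication and mitosis gene, and Ccnd3, Cdk4 and Ccne1 are red in adrenal medulla.

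The level of 1 array against the other 2 of its tissue was compared for every gene, a measure chosen after the values were seen. In carotid body array 3, 16 of the 36 genes were at least 2-fold above both other carotid body arrays, against 0.682% of all genes. These were Mcm5 and Rrm2 of replication, Ccne1, Ccne2 and Ccna2 of the G1 and S phases, 10 mitosis genes and Hmga2. Ccne1, by 1.12, was the gene nearest above that limit and Mcm4, by 0.91, the nearest below. Array 3 was the highest carotid body array for 33 of the 36 genes, against 41.8% of all genes, and the exceptions were Ccnd2, Kif11 and Tpx2. The count of genes at least 2-fold above both others was 0 in carotid body arrays 1 and 2, against 0.956% and 0.0715% of all genes. It was 0 in adrenal medulla arrays 1 and 2, against 0.638% and 0.0934%, and 2 in adrenal medulla array 3, against 0.0550%. Those 2 were Top2a and Bub1.
The median excess of array 3 over the mean of carotid body arrays 1 and 2 was 1.70 for the 18 mitosis genes, 0.80 for the 9 replication genes and 0.43 for the 8 genes of the G1 and S phases. It was 0.05 over all genes. In adrenal medulla array 3, of the same cohort, the median excess was 0.37 for the mitosis genes, and array 3 was the highest adrenal medulla array for 22 of the 36 genes, against 34.6% of all genes. Of all 89 probe sets of the 36 genes, 26 were at least 2-fold higher in carotid body array 3 than in both others. The share over all probe sets was not taken for this measure, and by brightest probe set it was 0.682% of all genes.

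**Figure D4:**
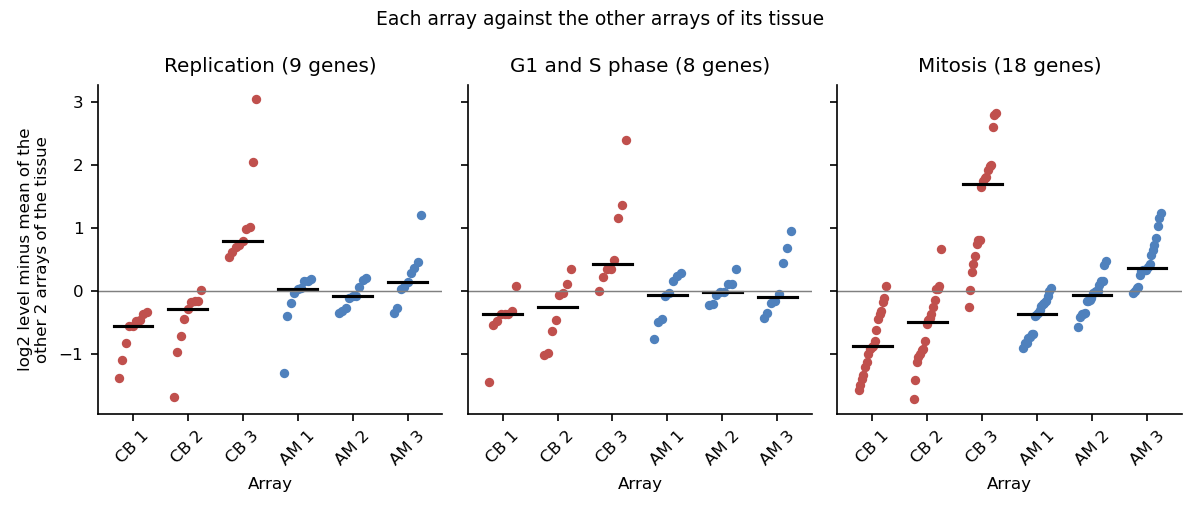
Log2 level of each gene (points, sorted) in one array minus the mean of the other 2 arrays of its tissue, for replication, G1 and S phase and mitosis genes; carotid body arrays are red, adrenal medulla blue, and black lines are medians. The median of the mitosis genes is 1.70 for carotid body array 3 and 0.37 for adrenal medulla array 3.

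Other genes that were high in carotid body array 3 were named after their values were seen. Ranked by the excess of that array over the higher of the other 2, Hmga2 was 2 of 18193 genes and 8 of the 36 genes were among the first 30. The embryonic globin Hbb-y ranked first, at 9.19, 4.88 and 13.86 in carotid body and at 3.63, 3.55 and 8.64 in adrenal medulla. Its tissue difference of 4.04 had a limma adjusted p of 0.253, and of 0.0153 with the cohort as a block. Hbb-bh1, another embryonic globin, was at 4.49, 4.58 and 8.78 in carotid body and at 4.08, 4.07 and 4.70 in adrenal medulla. Hba-x, the embryonic alpha-like globin, was at 4.99, 4.49 and 8.02, against 4.99, 4.46 and 4.58. Sox11, a factor of embryonic tissues, was at 5.35, 4.80 and 7.92 in carotid body and at 4.86, 4.99 and 4.95 in adrenal medulla. The globins and Sox11 were picked from the first 30 and not by rank alone. Chek1, Slfn3, Krt8, Actg2, Svs5 and Vip, at ranks 4, 5, 8, 9, 10 and 14, were there too. The labels give these animals as adult.
Markers in 11 lists of cell types and tissues, glomus and chromaffin cells included, came to 89 measured genes. In carotid body array 3, 0 of the 89 were at least 2-fold above both other carotid body arrays. The share over all genes was 0.682%, so a count of 0 is near the background. The 10 lymphocyte markers summed to linear intensities of 394, 391 and 377 in carotid body, against 367, 322 and 344 in adrenal medulla. The 6 erythroid markers summed to 444, 575 and 621 in carotid body, against 563, 751 and 648 in adrenal medulla. Of the 6, Tfrc alone was highest in carotid body array 3, and by tissue mean 3 were higher and 3 lower in carotid body. Tfrc was at 6.75, 7.50 and 8.18 in carotid body, against 8.36, 8.88 and 8.67 in adrenal medulla. Hbb-b2 and Alas2 were among those higher in carotid body, by 0.79 and 0.94. The part of any of these values in the cell cycle result was not tested.

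The cell cycle beyond the 36 genes was followed in 4 lists with 133 measured genes. Over all genes, 5.91% were called higher and 6.08% lower in carotid body, and the counts below are to be read against those shares. Of 44 other replication genes, 0 were called higher and 1 lower in carotid body, with a median difference of 0.02. The gene was Gmnn, which encodes geminin, the inhibitor that keeps DNA from being licensed for copying more than once. Gmnn was at 6.58, 6.54 and 7.74 in carotid body, against 8.33, 8.22 and 8.42 in adrenal medulla (-1.37 ± 0.31 (SE), limma adjusted p = 0.0155). Each carotid body array was below each adrenal medulla array. The adjusted p rose past the limit when carotid body array 2 (0.0578), adrenal medulla array 2 (0.0515) or adrenal medulla array 3 (0.0591) was left out.
Carotid body array 3 was the highest of its tissue for 37 of these 44 genes, against 41.8% of all genes. In that array 5 were at least 2-fold above both others, against 0.682% of all genes. Without it 0 of the 44 were called higher and 4 lower, against 12.8% of all genes called in either direction.

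Of 59 other mitosis genes, 3 were called higher and 0 lower in carotid body, with a median difference of 0.19. That number of calls is near the share over all genes. Anln, anillin of the cleavage furrow, rose to 7.22, 7.37 and 8.20 in carotid body, against 5.44, 5.94 and 5.96 in adrenal medulla (1.81 ± 0.27 (SE), limma adjusted p = 0.00311). As the mean of its probe sets Anln differed by 1.15 (limma adjusted p = 0.00386). Stmn1, stathmin, which takes microtubules apart, was at 12.06, 12.79 and 12.66 in carotid body and at 10.86, 11.43 and 11.29 in adrenal medulla (1.31 ± 0.23 (SE), limma adjusted p = 0.00595). In Stmn1 carotid body array 3 was not the highest. Cdc25b, the phosphatase that activates Cdk1, was at 6.94, 6.78 and 7.06 in carotid body and at 5.56, 6.04 and 6.12 in adrenal medulla (1.02 ± 0.17 (SE), limma adjusted p = 0.00518). That difference was just past 2-fold, and was 0.95 when carotid body array 3 was left out, 0.85 when adrenal medulla array 1 was left out and 0.90 when arrays were centred on their medians. Array 3 was at least 2-fold above both other carotid body arrays for 18 of the 59 genes, against 0.682% of all genes. Without it 2 were called higher and 2 lower, against 12.8% of all genes called in either direction.
Glia markers also differed between the tissues: 6 of 7 were called higher in carotid body, against 5.91% of all genes. The list summed to between 9526 and 10304 in carotid body and between 1763 and 2096 in adrenal medulla. Fibroblast markers (9 of 9) and smooth muscle markers (8 of 8) were also called higher in carotid body. Their part in the differences of Anln, Stmn1 and Cdc25b was not tested.

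Of 8 inhibitors of cyclin-dependent kinases, 1 was called higher and 0 lower in carotid body. Cdkn1a, which encodes p21, was at 8.07, 8.34 and 8.09 in carotid body, against 7.29, 7.01 and 6.93 in adrenal medulla (1.09 ± 0.14 (SE), limma adjusted p = 0.00170). All 3 carotid body arrays were above all 3 of adrenal medulla. The difference was under 2-fold with median-centred arrays, at 0.98, and as the mean of its probe sets, at 0.68. Of 22 genes of the retinoblastoma, E2F and DREAM group, 0 were called higher and 1 lower. E2f3, an activator of S phase genes, was at 5.93, 5.58 and 6.60 in carotid body, against 7.06, 7.51 and 7.57 in adrenal medulla (-1.35 ± 0.27 (SE), limma adjusted p = 0.00972). As the mean of its probe sets E2f3 differed by -0.65. With the adjusted p alone, 2 genes of the group were higher and 6 lower in carotid body, against 10.9% and 16.5% of all genes. With the cohort as a block they were 1 and 6. Among these, picked after their values were seen, Rb1 differed by 0.78 (limma adjusted p = 0.00748) and E2f1 by -0.91 (limma adjusted p = 0.0149).

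**Figure D5:**
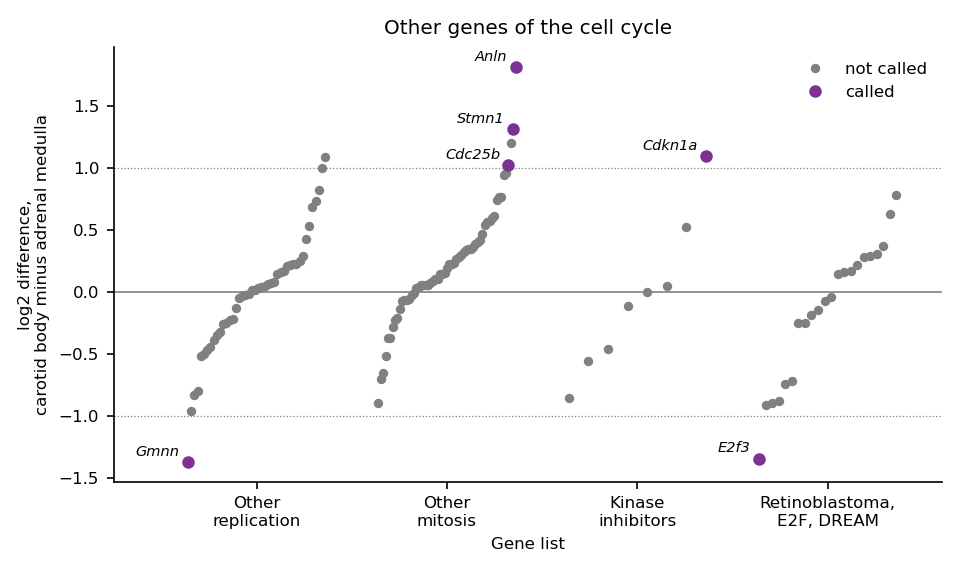
Log2 difference, carotid body minus adrenal medulla (y axis), of each measured gene in 4 lists of other cell cycle genes (x axis), sorted within list; purple points were called and dotted lines mark 2-fold. Anln, Stmn1, Cdc25b and Cdkn1a lie above the upper line and Gmnn and E2f3 below the lower one.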

How the data were processed

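Gene expression was measured on Affymetrix arrays of 3 carotid body and 3 adrenal medulla pools, with 3′ in vitro transcription labelling per the labels' protocols. The authors deposited 1 log2 intensity per probe set and array, made in Affymetrix Expression Console (submitters' processing notes). Its release and the algorithm it ran are not given here in any source. The log2 scale was read from the values. No further normalization was applied.

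Of 45101 probe sets, 64 controls were left out and 45037 tested by lmFit and eBayes of limma 3.58.1 (R 4.3.3; 2 groups, no block), with two-sided p adjusted by Benjamini-Hochberg over all of them. The platform annotation of 2016 gave 34945 probe sets 1 symbol, 932 several and 9160 none; all 36 measured genes were found in RefSeq, with 0 symbols changed. A gene was its brightest 1-symbol probe set over the 6 arrays, and 27 of the 36 had several. The fit was tested on simulated data. The number of arrays limits the precision, and the spread between pools holds animal and technical variation.

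The series says that group numbers mark a cohort, so they pair the samples. Deviations from tissue means correlated at 0.22, 0.08 and 0.16 for same-numbered samples and between -0.21 and 0.10 for others. Alternatives were a cohort block, quantile normalization, median centring, removal of probe sets dimmer than the median one, an intensity trend, the mean of a gene's probe sets, the adjusted p alone and leaving out arrays; leaving out a whole cohort was added after seeing the data. The text names every member, each called gene of the other cell cycle lists and a few markers. The members and lists were chosen with earlier results of these data known.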

Additional observations from a re-analysis of the deposited data

How the results depend on the processing

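Members called higher in carotid body stayed at 0, in each group of members, under all 16 alternatives. Members called lower in carotid body, 0 here, were 1 with the mean of a gene's probe sets (Ccne1), 0 to 2 when arrays or a cohort were left out, and 2 with the adjusted p alone; the same values hold for the genes of the G1 and S phases. Of 566 values of a member under an alternative, 560 were on the same side of the call; 20 members not called had another sign under some alternative. With the dimmer part of probe sets removed, 26 members could be fitted. Over all genes, 1075 were called higher and 1107 lower in carotid body; the ranges were 807 to 1125 and 532 to 1269 when arrays or a cohort were left out, and the counts 1988 and 2995 with the adjusted p alone. The low ends came without cohort 2. Leaving out any cohort leaves 2 arrays a tissue. The counts were 1125 and 1219 without cohort 1, and 1033 and 1180 without cohort 3. Other cell cycle genes called higher in carotid body, 4 here, were 2 with median-centred arrays, 0 to 5 when arrays or a cohort were left out and 9 with the adjusted p alone; those called lower, 2 here, were 5, 1 to 9 and 14. Without carotid body array 3 they were 7. Without cohort 2, Anln, Stmn1, Cdc25b, Cdkn1a, E2f3 and Gmnn were not called, nor were Cdc25b and Gmnn without cohort 1. Median centring moved the median difference of all genes by -0.11, and removal of dim probe sets by -0.12. With cohort as a replicate block, 0 members were called in either direction against 12.3% of all genes; over all genes 1099 were higher and 1132 lower, and other cell cycle genes counted 5 and 2, the added one being Uhrf1 (1.09, limma adjusted p = 0.0306). By the adjusted p alone, the block added Ccne1 among the members and took away 1 gene of the retinoblastoma, E2F and DREAM group. By that measure other replication genes went from 2 higher and 5 lower in carotid body to 5 and 6. Other mitosis genes went from 4 and 1 to 6 and 2, and kinase inhibitors from 1 and 2 to 2 and 2. Hbb-y was called with the block, and no other gene named in the text changed its call. The pseudocount alternative was not run, since the values are log2. The cause of these changes was not tested. Of the 18 mitosis genes, 17 were dimmer than the median gene, and whether signal near background limits them was not tested.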
